A study of Bos taurus with 2 samples.

Results

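In the sperm of Bull1 and Bull2, Holstein bulls that are monozygotic twins, the PSMD3 promoter window chr19:40960276-40960430 (UMD3.1) was examined CpG by CpG together with 20 kb on each side. The window was taken by position and held 10 CpGs, and the whole 40 kb held 716 of the 27203217 CpGs listed for each bull. The window had been selected on the measured methylation difference between these same libraries, as a differentially methylated region of the study that was later assayed by cloning, so the difference inside it is given as a description with no test. The paper reported that the cloning assay also showed a methylation difference between the bulls in this region. In the data used here methylation was measured by whole-genome bisulfite sequencing (WGBS), which reads unmethylated cytosines as thymine after bisulfite treatment. The frozen semen of both bulls came from the same week and the same age. By the paper, average sperm motility was the better in Bull1. By period, the paper found it significantly different only early in semen collection, at younger ages than that of the semen used here. Each bull has 1 library and neither was treated, so the spread between replicates is unknown and every difference below is one between libraries. No expression values were used here by which the purity of the sperm could be checked.

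PSMD3 encodes a non-ATPase subunit in the lid of the proteasome regulatory particle, the complex that recognises ubiquitin-tagged proteins and feeds them to the proteolytic core. The proteasome is needed in nearly every cell, and in the male germ line it also serves the protein turnover of spermatogenesis. In mammalian sperm most CpGs are methylated, while CpG-dense promoters of widely expressed genes usually stay unmethylated, with a short zone of intermediate levels at each border. In the RefSeq gene table of the later assembly ARS-UCD2.0 the nearest protein-coding genes on either side of PSMD3 are GSDMA, a gasdermin gene, and CSF3, which encodes granulocyte colony-stimulating factor. An annotation of UMD3.1 was not used here, so the start site of PSMD3 and its direction were not placed on the coordinates below, and the sides of the window are called the low-coordinate and the high-coordinate side.

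The primers of the cloning assay mark the assayed stretch and are shown for that reason, 5′ to 3′ and in lower case throughout. Both are 25 bases long and hold 0 CG dinucleotides. The forward primer has no C and the reverse primer no G, and they were designed for bisulfite-converted DNA. The bases of the window itself are not printed, since a genome of this build was not used here.
Forward: tattttggtttttgatgtgaagaag
Reverse: aacccaaaaattaaatccaaatctc

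Across the 40 kb, 77.0% of reads at CpGs were methylated in Bull1 (8083 of 10503) and 73.3% in Bull2 (6822 of 9301). The difference was 3.61 points (95% interval 2.41 to 4.82) over all 716 CpGs. Over the 23978882 tested CpGs of the genome, those with at least 5 reads in each library, it was 4.12 points. The 3.61 points depend on where the reads fell, since the low stretch 40960524 to 40962404 held 1169 of the reads in Bull1 and 1243 in Bull2. Outside the window and the low segments described below, the difference was 1.61 points (0.566 to 2.65). The values of the 40 kb and the genome are therefore not compared further. Depth was moderate, with a median of 13 reads per CpG in Bull1 and 11 in Bull2. No CpG of the 40 kb lacked reads, and 645 of the 716 had at least 5 reads in both libraries. Intervals are exact Clopper-Pearson intervals for a level and Newcombe intervals for a difference, at 95%. They treat each read at each CpG as independent and cover no other error. A read that spans several CpGs is counted at each of them, so the intervals over several CpGs are narrower than independent molecules would give.

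The 40 kb showed 1 segment of low methylation, and the window formed its low-coordinate border. A low segment was defined as at least 5 consecutive CpGs whose level over 5 neighbouring CpGs was below 50%. In Bull1 it ran from 40960276 to 40962788, 2513 bp with 132 CpGs and 10.6% methylation. In Bull2 it ran from 40960419 to 40962788, 2370 bp with 124 CpGs and 4.69%. These levels are not compared, since the segment of Bull1 also holds the 8 window CpGs between the near edges. Both segments include the methylated CpGs 40962739 and 40962788 at the far edge. No other low segment was found in either library by this definition. The far edges were at the same CpG, while the near edge of Bull1 lay 143 bp further out. Both edges moved with the definition. With a threshold of 25% the segment ran from 40960330 to 40961541 in Bull1 (1212 bp, with levels below 25% again further into the core) and from 40960524 to 40962404 in Bull2 (1881 bp), and with levels over 3 CpGs it was 1316 and 2310 bp long, so in both cases Bull1 had the shorter one. With 75% the near edge of Bull2 was the outer one (-209 bp on the scale on which Bull1 further out is positive), but only by -2 bp once CpGs at 0 in both libraries before the window were left out, and with levels over 9 CpGs the offset was 54 bp.

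**Figure D1:**
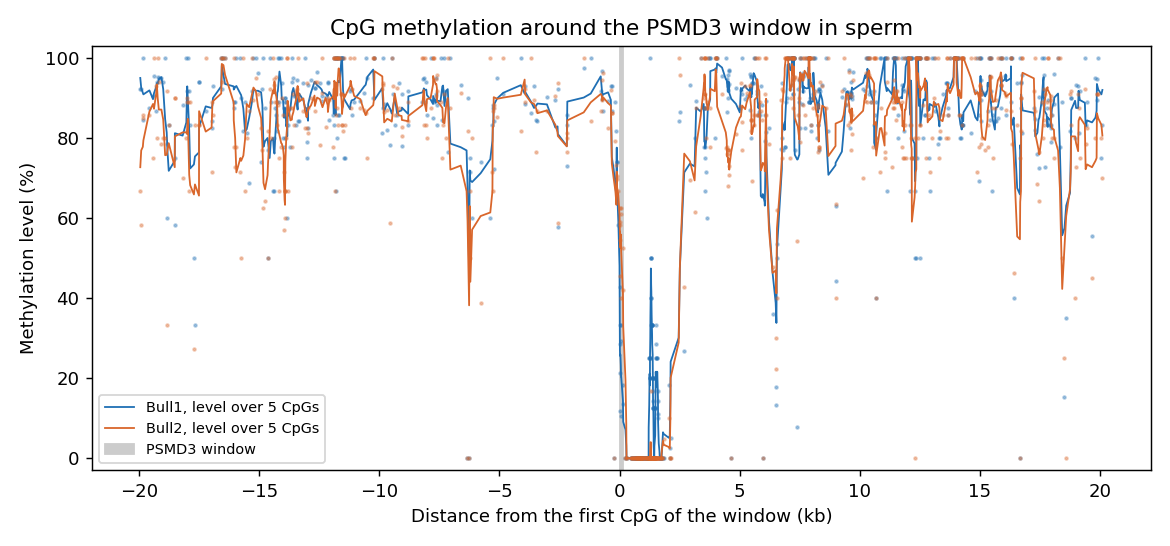
Methylation level (%) against distance from the first CpG of the window (kb), points for single CpGs and lines for the level over 5 CpGs, Bull1 in blue and Bull2 in orange, the window in grey. Both lines stay mostly above 60% over the 40 kb and fall to 0% only in the segment that begins at the window.

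Methylation was lower close to the window than further before it. The CpG 40960031 in between, without a methylated read in either library, is described further on. At 40959916 27 of 29 reads were methylated in Bull1 (93.1%) and 23 of 25 in Bull2 (92.0%). At 40960106 the levels were 88.9% (24 of 27) and 79.2% (19 of 24), and at 40960148 they were 81.8% (18 of 22) and 73.3% (22 of 30). Bull1 was the higher library at each of these CpGs. The neighbouring CpGs at 40960161 and 40960163 had the same 17 of 23 reads methylated in Bull1 (73.9%) against 24 of 34 (70.6%) and 23 of 33 (69.7%) in Bull2. The order turned at 40960226, 50 bp before the window, with 58.3% in Bull1 (7 of 12, interval 27.7 to 84.8%) and 66.7% in Bull2 (18 of 27, 46.0 to 83.5%). Over the 9 CpGs within 400 bp before the window the level was 74.7% in Bull1 and 71.9% in Bull2, a difference of 2.77 points whose interval, -5.32 to 10.7, includes 0.

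Inside the window the share of methylated reads was 23.3% for Bull1 (40 of 172, 17.2 to 30.3%) and 54.0% for Bull2 (122 of 226, 47.2 to 60.6%), which is -30.7 points (-39.3 to -21.3). At the first CpG, 40960276, the levels were 42.9% in Bull1 (6 of 14) and 58.3% in Bull2 (14 of 24). At 40960286 they were 28.6% (4 of 14) and 59.1% (13 of 22), and at 40960292 they were 21.4% (3 of 14) and 45.5% (10 of 22). Bull1 was lower at each of these.

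At 40960300 the levels were 33.3% in Bull1 (5 of 15) and 54.5% in Bull2 (12 of 22). The CpG at 40960313 had one of the widest gaps, 11.8% (2 of 17) against 62.5% (15 of 24), a difference of -50.7 points. At 40960330 the values were 33.3% (6 of 18) and 60.9% (14 of 23). Over the first 6 CpGs, within 54 bp, Bull2 thus stayed between 45.5 and 62.5%, and Bull1 between 11.8 and 42.9%.

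The smallest gap was at 40960340, with 29.4% in Bull1 (5 of 17) and 40% in Bull2 (10 of 25). Only 5 bp further, at 40960345, stood the widest one, 10.5% (2 of 19) against 62.5% (15 of 24) or -52.0 points. The last CpGs, at 40960419 and 40960430, had 18.2% (4 of 22) and 13.6% (3 of 22) in Bull1. In Bull2 they had 52.4% (11 of 21) and 42.1% (8 of 19). Bull1 was lower at 10 of 10 CpGs, where 32.6% of all tested CpGs were lower in Bull1. The window was selected on this difference and its close CpGs can share reads, so nothing is read from that count.

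Levels in the window ranged from 10.5 to 42.9% in Bull1 and from 40 to 62.5% in Bull2. The ranges overlapped between 40 and 42.9%, through the first CpG in Bull1 and the CpGs 40960340 and 40960430 in Bull2. The intervals of the libraries did not overlap at 2 of the 10 CpGs, and at 6 the interval of Bull1 ended below the level of Bull2. From the first to the last 5 CpGs the level went from 27.0 to 20.4% in Bull1 and from 56.1 to 51.8% in Bull2. The difference was of like size in both parts, -29.1 points (-41.5 to -14.7) and -31.4 (-42.7 to -18.5). Bull2 was the more deeply covered library in the window, with 22.6 against 17.2 reads per CpG. The ratio of reads, Bull1 over Bull2, was 0.761 there, 1.13 over the 40 kb and 1.09 over all listed CpGs. With the reads of Bull2 thinned to the coverage of Bull1 the difference in the window was -29.1 points (-38.5 to -18.9), and with those of Bull1 thinned to the coverage of Bull2 it was -30.8. Random thinning does not change the expected level, so whether coverage bears on the difference was not tested by it.

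**Figure D2:**
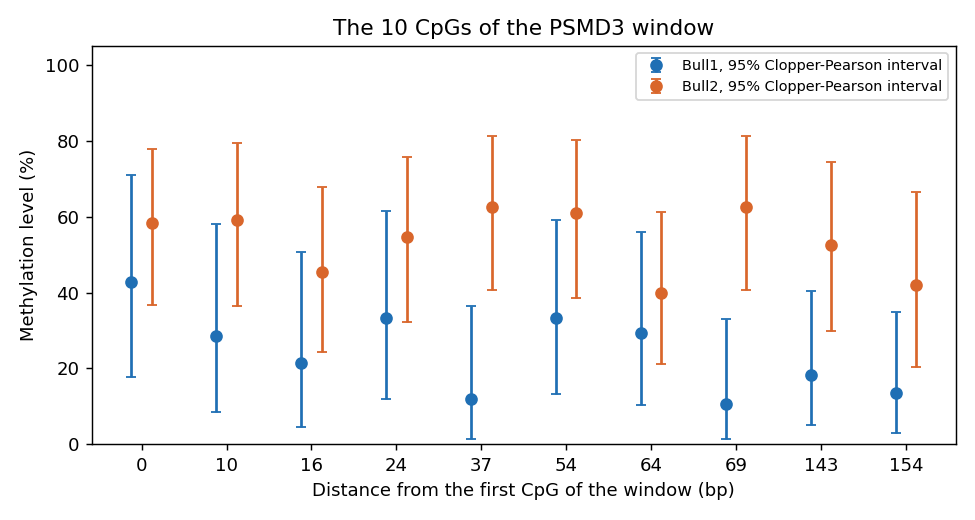
Methylation level (%) of each of the 10 CpGs of the window against its distance from the first one (bp), with exact 95% Clopper-Pearson intervals, Bull1 in blue and Bull2 in orange. Bull1 lies below Bull2 at every CpG, and the intervals separate at 37 and 69 bp.

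On the high-coordinate side the difference was gone at the next CpG. This CpG, 40960524, lay 94 bp beyond the window and had 0 of 17 methylated reads in Bull1 and 0 of 18 in Bull2. From there to 40961513, over 55 CpGs, 0 of 571 reads were methylated in Bull1 and 0 of 576 in Bull2, and an upper limit of 3 counts allows levels of up to 0.525% and 0.521%. Both libraries were thus unmethylated there as far as this depth can show. A run of CpGs around the middle of the window whose difference over 5 CpGs was at most -10 points spanned 249 bp and 11 CpGs, from 40960276 to 40960524. The widest difference over 5 CpGs in it was -35.1 points, centred on 40960340. With other averaging widths and limits the run was 145 to 332 bp long. Its last CpG, 40960524, had no methylated read in either library and entered only through the averaging over 5 CpGs. When the window was widened by 200 bp on each side its difference shrank to -16.0 points, and with 500 bp to -7.29.

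**Figure D3:**
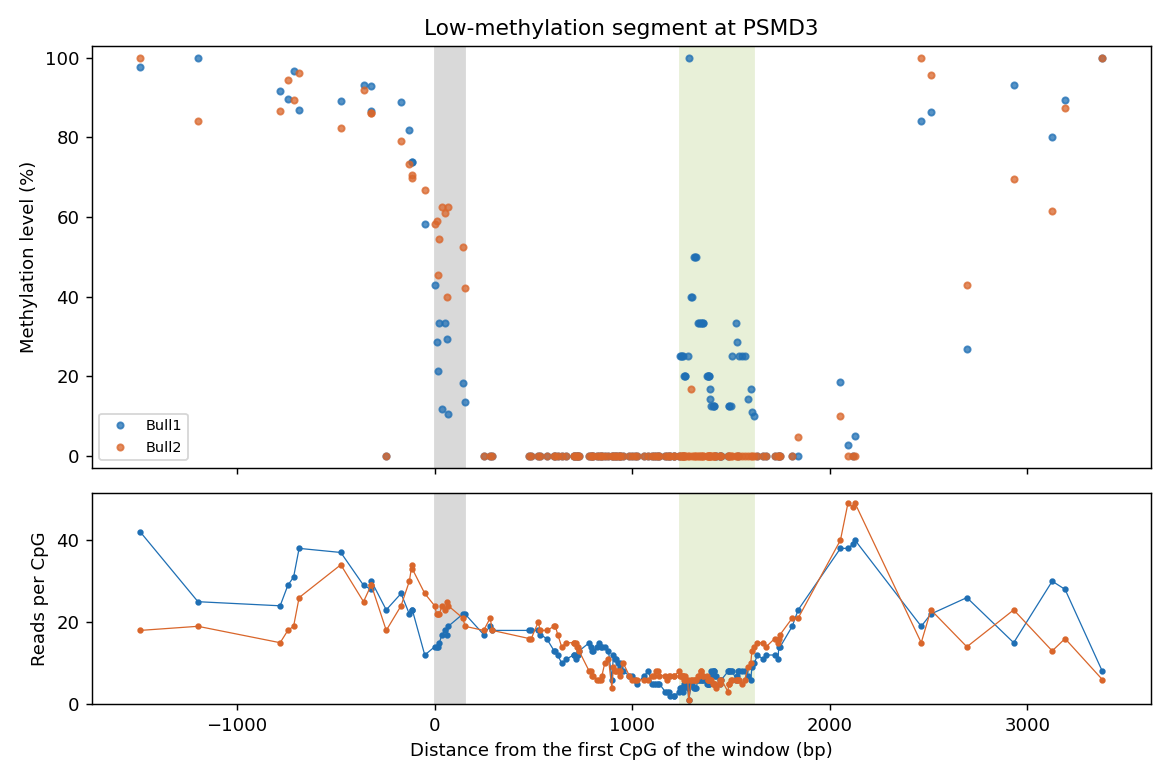
Upper panel: methylation level (%) of single CpGs from 1500 bp before to 3500 bp after the first CpG of the window, Bull1 in blue and Bull2 in orange; lower panel: reads per CpG at the same positions. The grey band is the window, where Bull1 is lower, and the green band is the stretch of the unmethylated core where Bull1 has some methylated reads and Bull2 almost none, at a depth of at most 14 reads.

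The core of the segment, from 40960524 to 40962404, held 120 CpGs or 6.38 per 100 bp, against 1.14 in the low-coordinate and 2.05 in the high-coordinate flank. Methylated reads made up 6.07% for Bull1 (71 of 1169, 4.77 to 7.60%) and 0.483% for Bull2 (6 of 1243, 0.177 to 1.05%). At 72 of the 120 CpGs neither library had a methylated read. Here the order of the bulls was opposite to that in the window, with Bull1 higher by 5.59 points (4.24 to 7.13).

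The methylated reads of Bull1 in the core were gathered in 1 stretch. Of its 71 methylated reads, 61 lay at 52 CpGs between 40961519 and 40961895, 377 bp with 13.8 CpGs per 100 bp, against 5.56 in the core before it and 2.62 after it. The stretch was delimited after its values were seen, by the CpGs with a methylated read in Bull1. The share of its CpGs with such a read and the contrast with Bull2 follow partly from that choice. They are given as a description. In it the methylated share was 19.4% for Bull1 (61 of 315, 15.1 to 24.2%) and 0.302% for Bull2 (1 of 331, up to 1.67%). These counts over closely spaced CpGs may come from few molecules, so the interval of Bull1 is too narrow by an unknown amount. A methylated read was present at 44 of the 52 CpGs in Bull1 and at 1 in Bull2. Coverage was thin, 6.06 and 6.37 reads per CpG, and no CpG had more than 2 methylated reads in Bull1. Of these CpGs 40 had at least 5 reads in both libraries, and their lowest unadjusted p was 0.165 (two-sided Fisher exact test).

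Beyond this stretch, over the CpGs 40961909 to 40962404, methylated reads made up 3.53% for Bull1 (10 of 283) and 1.49% for Bull2 (5 of 336), a difference of 2.05 points whose interval, -0.477 to 5.02, includes 0. Most of these reads fell on 40962330, with 7 of 38 methylated in Bull1 (18.4%) and 4 of 40 in Bull2 (10%). The next CpG, 40962368, had 1 of 38 and 0 of 49, and 40962393 had 0 of 39 and 0 of 48. At the far border the whole rise fell between a pair of CpGs. From 40962404, with 2 of 40 reads methylated in Bull1 and 0 of 49 in Bull2, the level rose within 335 bp to 84.2% in Bull1 (16 of 19) and 100% in Bull2 (15 of 15) at 40962739. No CpG lies between them, so the exact point of the rise was not resolved. The far edge of both segments, 40962788, was itself methylated, 86.4% (19 of 22) and 95.7% (22 of 23), and lay inside by its 5-CpG level alone. At 40962970 both libraries dipped once more, to 26.9% (7 of 26) and 42.9% (6 of 14).

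Edges of low segments (5-CpG level below 50%) were then compared over the genome, a comparison chosen after the edges at PSMD3 were seen. Pairs of low segments of at least 1 kb that matched 1 to 1 between the libraries numbered 26814, with 53628 edges. At 46.9% of these edges both libraries had the same edge CpG, as at the far edge here. An offset of 143 bp or more with Bull1 further out was found at 8.61% of edges, and one of that size with Bull2 further out at 13.8%. The offset at PSMD3 lies inside the window, which was selected on this difference, and it changed with the definition as given above, so these shares are background and nothing is read from them about PSMD3. In blocks of 10 consecutive CpGs tiled along the chromosome, the window was shared between 2 blocks, which differed by -16.7 points (40960161 to 40960340) and -13 points (40960345 to 40960811).

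**Figure D4:**
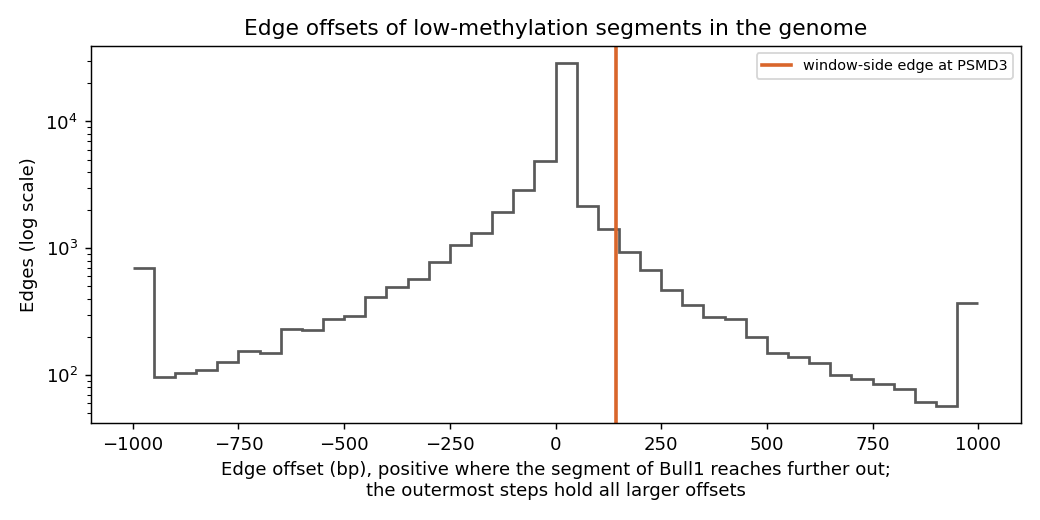
Number of segment edges (log scale) against the offset between the edges of Bull1 and Bull2 in bp, in steps of 50 bp with all larger offsets in the outermost steps, positive where the segment of Bull1 reaches further out. The orange line marks the window-side edge at PSMD3, 143 bp, inside the window that was selected on the difference between the bulls.

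Outside the window and the segments both flanks were highly methylated. The low-coordinate flank had 87.4% in Bull1 (3240 of 3707 reads at 227 CpGs) and 84.6% in Bull2 (2645 of 3127), a difference of 2.82 points (1.17 to 4.48). The high-coordinate flank had 86.8% (4697 of 5414 reads at 357 CpGs) and 86.0% (4012 of 4667), a difference of 0.791 points whose interval, -0.550 to 2.14, includes 0. Of the 533 flank CpGs with at least 5 reads in both libraries Bull1 was higher at 50.7% and lower at 37.7%, against 57.3% and 32.6% over all tested CpGs.

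By distance, no bin outside the window had a lower level in Bull1 with an interval that excluded 0. In the 200 bp before it Bull1 was higher by 5.95 points (-5.06 to 16.3) and from 200 to 500 bp by 1.38 (-8.59 to 11.4). From 10 to 20 kb on the low-coordinate side Bull1 was higher by 2.97 points (0.844 to 5.11). On the high-coordinate side, no read was methylated in either library up to 1000 bp. From 1000 to 2000 bp, which holds the stretch of the core described above, Bull1 was higher by 10.7 points (8.20 to 13.5), and from 2000 to 5000 bp by 5.86 (2.06 to 9.66). As unweighted means of CpG levels these differences were 14.5 and 2.54 points. The remaining bins had intervals that include 0.

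**Figure D5:**
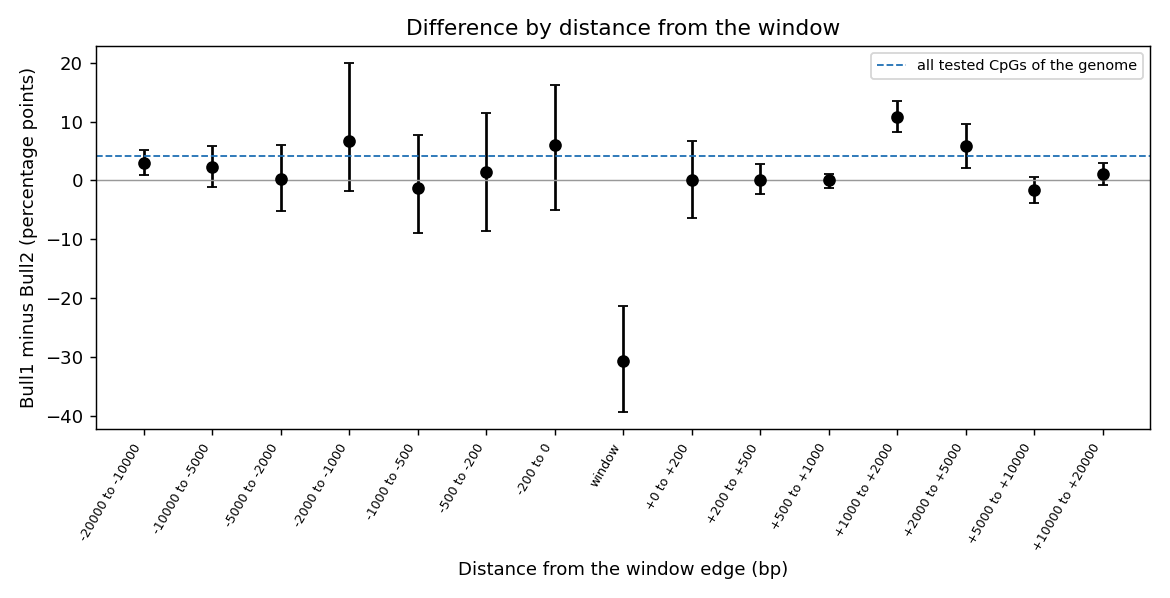
Difference of methylation, Bull1 minus Bull2 in percentage points, against distance from the window edges (bp), with 95% Newcombe intervals; the dashed line is the difference over all tested CpGs, 4.12 points. The window stands at -30.7 while the bins beside it lie near 0 or above.

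Single CpGs of the 40 kb outside the window, the core of the low segment included, were tested with a two-sided Fisher exact test per CpG, adjusted by Benjamini-Hochberg over all 23978882 tested CpGs. Of the 635 tested CpGs outside the window, 533 lay outside the low segments as well. An adjusted p of 0.05 was passed by 0 of the 635, where 0.000342% of all tested CpGs passed and 2.09e-05% passed as lower in Bull1. The largest exact p that passed over the genome was 1.7e-07, which a CpG at the depth found here can hardly reach. In the window, selected on this difference, 0 of the 10 CpGs passed either. The 0 outside the window thus says little about how far the difference extends. At an unadjusted p of at most 0.05 there were 6 CpGs outside the window (background 2.88%). Of these 5 were higher in Bull1 (0.787%, background 2.53%) and 1 was lower (0.157%, background 0.346%). Coverage here was lower than behind that background, so the shares are not compared further. In Bull1 and Bull2 it was 14.6 and 12.9 reads per listed CpG outside the window, against 20.01 and 18.35 per listed CpG of the genome. Such tests tell libraries apart, not animals, and the window CpGs are not counted in the 635. For these bulls the paper reported far more differentially methylated cytosines. It also named Fisher's exact test, at least 5 reads and a false discovery rate below 0.05. Why the counts differ was not tested.

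The lowest p among these CpGs with at least 10 reads belonged to 40967674, 7398 bp from the first CpG of the window, with 1 of 13 reads methylated in Bull1 (7.69%) and 13 of 24 in Bull2 (54.2%, exact p = 0.0111, adjusted p = 1). Its neighbours at 40967574 and 40967696 had 76.9% and 92.3% in Bull1 and 95.2% and 85.7% in Bull2, so the low value stood alone. At 40964845 and 40964850 Bull1 was higher, 96.7% (29 of 30) and 96.9% (31 of 32) against 70.8% (17 of 24) and 73.1% (19 of 26). At 40965382 it had 100% (22 of 22) against 76.9% (20 of 26). On the other side, 40954495 had 74.1% (20 of 27) against 38.9% (7 of 18). These CpGs had unadjusted exact p from 0.0163 to 0.0296 and an adjusted p of 1.

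Reads summed over blocks of 10 consecutive CpGs, with at least 50 reads in each library, were tested in the same way. Of 62 blocks that did not touch the window, core included, 5 passed an adjusted p of 0.05 (8.06%), all higher in Bull1, where 8.33% of all tested blocks passed and 7.94% passed as higher in Bull1. The share called was thus near the background. Bull1 was higher in 42 of the 62 blocks and lower in 16, where 76.8% of all tested blocks were higher and 22.2% lower. The median difference was 2.29 points against 3.65 over all tested blocks.

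Of the called blocks 3 lay in the stretch of the core. The block from 40961591 to 40961656 had 35.8% in Bull1 (19 of 53 reads) and 0 of 69 reads in Bull2 (exact test, adjusted p = 2.63e-05). From 40961803 to 40961895 the values were 18.2% (14 of 77) and 0 of 81 (exact test, adjusted p = 0.00256), and from 40961659 to 40961692 they were 15.4% (10 of 65) and 0 of 57 (adjusted p = 0.0294). All p are from Fisher's exact test on summed reads. With 1 or 2 methylated reads per CpG over closely spaced CpGs, the same few reads can be counted in each CpG of a block, so these p are smaller than independent molecules would give. With at least 100 reads required these 3 blocks were not tested.

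The other called blocks were neighbours in the high-coordinate flank. The block 40964748 to 40965125 had 91.4% for Bull1 (233 of 255 reads) and 74.0% for Bull2 (168 of 227), higher by 17.4 points (exact test, adjusted p = 0.000222). From 40963950 to 40964740 it was 97.3% (109 of 112) and 86.6% (116 of 134), higher by 10.8 points (exact test, adjusted p = 0.0376). In this stretch Bull2 was at 68.0 to 77.8% over 10 CpGs between 40964700 and 40964850, while Bull1 was at 86.4 to 100%. A read can span several of these close CpGs and is then counted at each one. The p of both called flank blocks may therefore be too low, by an unknown amount. This stretch was described after its values were seen. The block before it, 40963779 to 40963901, was lower in Bull1, 78.5% (62 of 79) against 92.5% (86 of 93). Its -14 points were the lowest of the 62 blocks, and it was not called (exact test, adjusted p = 0.0984). Of the 62 blocks 0 were called as lower in Bull1 (background 0.39%). At so low a background this 0 says little about how far the lower level in Bull1 extends. That 0 single CpGs outside the window passed the adjusted threshold adds little, since single CpGs at this depth could hardly pass it, in the window as outside.

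Some single CpGs within the methylated flanks had no methylated read in either bull. No genotype of the bulls at these positions was used here, so whether they hold a CpG in these bulls was not checked. Of the 533 tested flank CpGs 4 had a level below 20% in both libraries (0.75%), and all 4 had 0 methylated reads in both. Over all tested CpGs that share was 7.66%, but low segments are included there and were left out here, so nothing is read from the difference. The CpGs were 40953910 with 14 and 12 reads, 40960031 with 23 and 18, 40966242 with 37 and 11, and 40976956 with 14 and 11. The CpG at 40960031 lies 245 bp before the window between neighbours at 86.7% and 88.9% in Bull1. Low to intermediate levels were seen in both bulls at 5 CpGs from 40966648 to 40966829. There the levels were 36.0, 13.3, 17.9, 53.6 and 50% in Bull1 and 47.8, 30, 22.2, 61.9 and 40% in Bull2, at 25 to 30 and 18 to 23 reads.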

How the data were processed

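WGBS data of 2 sperm libraries, 1 per bull, were used. Before deposit the authors filtered reads of low quality, ran Bismark with bowtie2 at default settings against UMD3.1, and dropped duplicates. The submitters' processing notes also name FastQC 0.11.2 and Trim Galore 0.4.0. For each CpG the deposited files hold a level (a fraction that the authors calculated) and the counts of methylated, unmethylated and all reads, with no normalization. The counts added up in every row. Whether positions count from 0 or 1 is not given in the sources used here.

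All values were computed from the counts with Python 3.11.15, NumPy 2.4.6 and SciPy 1.17.1. Mean coverage was 20.01 reads per listed CpG in Bull1 and 18.35 in Bull2. The window edges came from the study's primer table. Fisher tests per CpG (at least 5 reads in both libraries) and per block were run on the whole genome and adjusted over it by Benjamini-Hochberg. The p per CpG was compared with that of SciPy on a sample of sites. The block test was also run on simulated counts, drawn independently at each CpG. Reads shared between neighbouring CpGs were not simulated, so their effect on the block p was not tested. Neighbours in a segment lay at most 1000 bp apart. Members, rules and named CpGs (those of the window, and the 5 flank CpGs of lowest p with at least 10 reads) were chosen with earlier results of these data known. Alternatives were other read minimums, averaging, window widths and shifts, smoothing widths, thresholds and block sizes. Promoters of other proteasome genes were not analysed here.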

Additional observations from a re-analysis of the deposited data

How the results depend on the processing

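No paired analysis was possible because there was only 1 library for either bull. The window difference stayed negative in every alternative run, between -33.1 and -28.1 points with any 1 CpG left out. It moved outside its interval only when the window was widened by 200 bp (-16.0) or 500 bp (-7.29), which adds CpGs by construction. The near edge of Bull1 lay 143 bp before that of Bull2 and 54 bp before it with 9 CpGs. At a threshold of 75% the order reversed, to -209 bp, and to -2 bp when CpGs at 0 in both libraries were also left out, an alternative chosen after seeing the data. The segment of Bull1 was 1316 bp long with 3 CpGs and 1212 bp at 25%, because the methylated reads of its core then split it. The run of lower levels in Bull1 was 155 bp with 3 CpGs and 145 bp at -20 points. Called blocks outside the window, all higher in Bull1, numbered 2 with 5 CpGs, 3 at a false discovery rate of 0.01 and 2 with at least 100 reads. With at least 20 reads 0 CpGs outside the window were lower in Bull1 at an unadjusted p. The unweighted difference on the high-coordinate side was 14.5 points from 1000 to 2000 bp and 2.54 from 2000 to 5000 bp. Other causes were not tested. Thin coverage, with medians of 8 and 7 reads per CpG in the core, limits what single CpGs can show.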
